A study of Mus musculus with 8 samples.

Results

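The CC chemokines Ccl2, Ccl3, Ccl4, Ccl6, Ccl7, Ccl8, Ccl9, Ccl12 and Ccl24 were followed as a named list of 9 genes among the 24787 genes listed in the count tables of 8 mouse tumors. They were taken by name, as CC chemokine genes that myeloid cells make, and all 9 had at least 1 transcript count in every tumor. The tumors were subcutaneous MC38 tumors, grown from a murine colon carcinoma line, in 8-week-old female C57BL/6J mice. They were taken 24 hours after administration, with 3 tumors in the saline group, 3 in the free R848 group and 2 in the medium R848-BPD group. R848 is resiquimod, a small-molecule agonist of Toll-like receptors 7 and 8. Medium R848-BPD is a bottlebrush prodrug, a brush-shaped polymer that carries R848 on a linker of medium release rate. From each tumor, CD45+ and CD45- cells were separated on magnetic beads and loaded 9:1 on Seq-Well arrays, a microwell platform for single-cell RNA sequencing, so the proportions of immune and other cells were set by the loading and not by the tumor. All tumors came from 1 transplanted line and were read at 1 time, and each tumor was 1 library.

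Chemokines are small secreted proteins that guide leukocytes along gradients through G protein-coupled receptors, and those of the CC group are known for the recruitment of monocytes, macrophages, dendritic cells and T cells. Monocytes and macrophages are both a main source and a main target of these proteins, so their levels in tumors are often read with the amount and state of the myeloid infiltrate. Ccl2, Ccl7, Ccl12 and Ccl8 are the monocyte chemoattractant proteins, most of which bind Ccr2 on inflammatory monocytes. Ccl3 and Ccl4 are macrophage inflammatory proteins, and Ccl3 binds Ccr1. Ccl6 and Ccl9 are rodent chemokines that bind Ccr1, and Ccl24 is eotaxin-2, a ligand of the eosinophil receptor Ccr3.

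Of the 9 genes, 8 lie on chromosome 11 of GRCm38 and fall into 2 groups of neighbors. Ccl2, at chr11:82035571-82037453, is followed on the plus strand by Ccl7, Ccl12 and Ccl8, which ends at position 82116799. Ccl9, at chr11:83572919-83578636, and Ccl6, at chr11:83587882-83593087, lie side by side on the minus strand, with Ccl3 (chr11:83647844-83649355, minus) and Ccl4 (chr11:83662584-83664683, plus) beyond them. Ccl24 lies apart, at chr5:135569937-135573049 on the minus strand. All 9 are protein-coding genes. RefSeq promoter sequence of the GRCm38.p6 build was matched for 5 of them (Ccl12, Ccl8, Ccl9, Ccl6 and Ccl3), and the 250 bases before the gene start were searched on both strands for the interferon-stimulated response element core (GAAA, any 2 bases, GAAA), the AP-1 site TGANTCA, the STAT site TTCNNNGAA and the NF-kB site. Ccl9 held an AP-1 match at position -53 from the gene start and, at position -35, an NF-kB match that reads ggggctttcc on the opposite strand, and the 2 matches do not overlap. The other 4 promoters held no match in this window. Over all 32851 promoters of the same length, the 4 motifs were found in 2.98%, 6.75%, 7.02% and 3.9% respectively. The windows of the 3 minus-strand genes are printed because these genes had levels that differed widely among the myeloid classes below, with the matched letters in capitals. They span chr11:83578637-83578886 for Ccl9, chr11:83593088-83593337 for Ccl6 and chr11:83649379-83649628 for Ccl3, each read on the minus strand.
Ccl9: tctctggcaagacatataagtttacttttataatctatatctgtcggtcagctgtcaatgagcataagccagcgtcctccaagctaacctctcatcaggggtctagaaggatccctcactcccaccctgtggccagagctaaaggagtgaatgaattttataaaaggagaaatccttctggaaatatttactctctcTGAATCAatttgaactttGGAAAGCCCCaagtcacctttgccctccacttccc
Ccl6: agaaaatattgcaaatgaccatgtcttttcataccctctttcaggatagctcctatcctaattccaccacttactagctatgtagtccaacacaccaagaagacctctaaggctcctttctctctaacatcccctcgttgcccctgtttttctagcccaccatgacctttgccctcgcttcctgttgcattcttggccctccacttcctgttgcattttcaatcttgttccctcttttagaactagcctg
Ccl3: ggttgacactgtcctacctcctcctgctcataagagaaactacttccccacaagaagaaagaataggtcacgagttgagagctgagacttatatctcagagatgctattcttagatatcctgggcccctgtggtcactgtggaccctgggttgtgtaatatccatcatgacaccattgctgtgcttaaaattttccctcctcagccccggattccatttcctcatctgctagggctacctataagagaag

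The tables held 10791 cell barcodes, of which 9886 passed the filters on genes, transcripts and mitochondrial reads. Total counts of unique molecular identifiers (UMIs, one per captured transcript) ran from 5867590 to 12422614 per tumor, and the median per kept cell from 3247 to 6928. Of the barcodes, 23 occurred in 2 or more tumors (59 kept cells), and 67 kept cells (0.678%) were marked as likely doublets. Cells were placed in classes by clusters and marker genes, with the chemokines left out of the clustering. Of the kept cells, 5311 were monocyte/macrophage-like, 1888 MC38-like, 1031 NK-like, 706 DC-like (dendritic cells) and 486 T-like. The smaller classes were osteoclast-like (142 cells), neutrophil-like (121) and fibroblast-like (50), and 151 cells stayed unnamed. One library of the saline group stood apart within the monocyte/macrophage-like class. Saline replicate 2 held 25 cells of the monocyte cluster (cluster 4, led by Chi3l3 and Vcan), against 176 and 149 in the other saline tumors, and log2 fold changes that turn on it are also given without it.

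The 9 chemokines were foremost transcripts of monocyte/macrophage-like cells, which held a mean of 44% of all UMIs of a tumor. The share of a chemokine's UMIs found in this class, averaged over the 8 tumors, was 95.6% ± 1.7 (SD) for Ccl12, 91.8% ± 4.8 for Ccl6, 91.3% ± 3.5 for Ccl8 and 91.2% ± 5.5 for Ccl7. It was lower for Ccl9 (83.2% ± 12.2), Ccl4 (82.8% ± 6.9), Ccl3 (78.5% ± 13.5) and Ccl2 (70.4% ± 11.4). Ccl24 was close to the limit of detection, with 90 UMIs in all cells, of which 87 lay in this class and the other 3 in unnamed cells. These levels describe genes that were listed as myeloid, so no test was applied to them.

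Levels are given as CPM, the UMIs of a gene per 1000000 UMIs of the class. A UMI stands for 1 transcript whatever its length, so levels were compared between genes without a length correction. Pooled over all tumors, monocyte/macrophage-like cells ranked the genes as Ccl7 (769 CPM), Ccl2 (760), Ccl6 (502), Ccl9 (483), Ccl12 (391), Ccl4 (313), Ccl8 (208), Ccl3 (153) and Ccl24 (2.67). Ccl7 and Ccl2 did not differ beyond their spread over tumors, nor did Ccl6 and Ccl9. Ccl8 and Ccl3 did not differ beyond it either, with medians over tumors of 112 and 147 CPM, and Ccl8 reached 952 CPM in medium R848-BPD replicate 2. The share of monocyte/macrophage-like cells with at least 1 UMI, after each cell was thinned to 1000 UMIs, had a mean over tumors of 38.6% for Ccl2, 34.6% for Ccl7, 28.7% for Ccl9, 22.3% for Ccl6, 20.9% for Ccl12, 18.9% for Ccl4, 12.1% for Ccl3, 6.41% for Ccl8 and 0.314% for Ccl24. Without thinning these shares were 70.8%, 59.8%, 58%, 47.6%, 48.4%, 45%, 33.3%, 12.5% and 0.841% in the same order. As a background level, T-like cells, which should lack most of these transcripts, had a thinned share of 1.67% for Ccl2, 0.92% for Ccl7, 1.48% for Ccl9, 0.883% for Ccl6, 1.02% for Ccl12 and 0 for Ccl8 and Ccl24. For Ccl3 and Ccl4, which T cells can make, MC38-like cells gave 0.735% and 1.73%. Median UMIs per cell by treatment ran from 4868 to 5292 in monocyte/macrophage-like cells, from 3985 to 5446 in T-like cells and from 10237 to 10727 in MC38-like cells. Pooled CPM are given without intervals, and the shares are means over tumors.

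**Figure D1:**
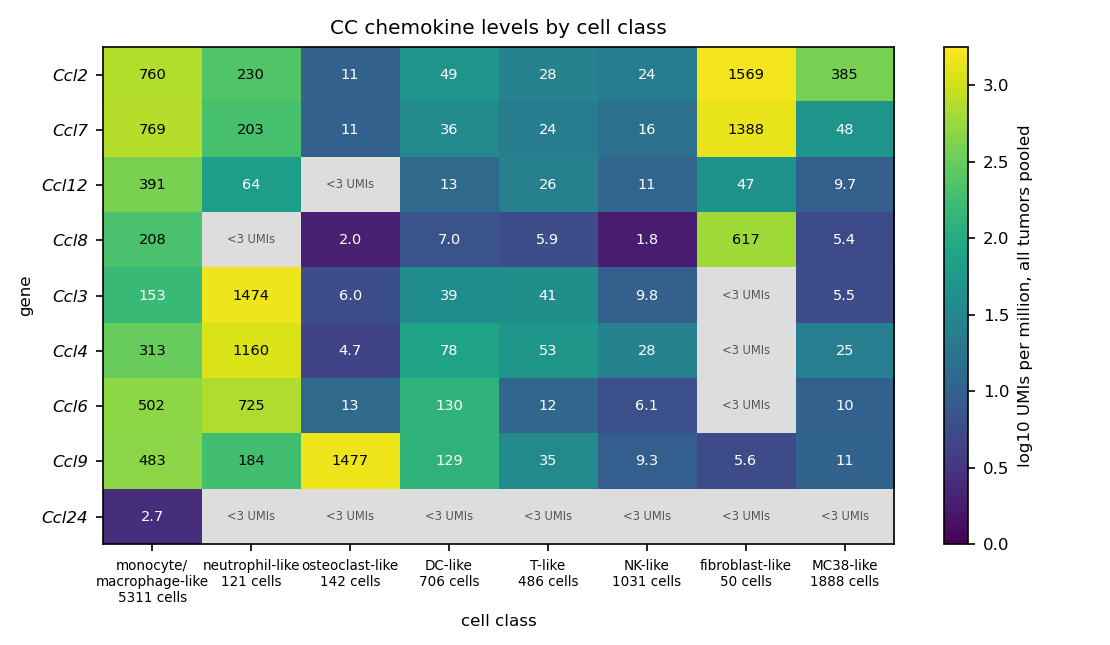
Level of each of the 9 chemokines (rows) in each cell class (columns), pooled over the 8 tumors, as log10 CPM of the class. Ccl24 is seen in monocyte/macrophage-like cells, Ccl3 and Ccl4 peak in neutrophil-like, Ccl9 in osteoclast-like, and Ccl2, Ccl7 and Ccl8 in fibroblast-like cells.

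Per transcript captured, 3 small classes held more of certain chemokines than monocyte/macrophage-like cells did. Neutrophil-like cells had 1474 CPM of Ccl3 and 1160 CPM of Ccl4. In the 5 tumors with at least 10 such cells, Ccl3 lay at 1359 and 1776 CPM after medium R848-BPD and at 589, 938 and 2289 CPM after free R848. Ccl4 lay at 974 and 1389 CPM after medium R848-BPD and at 749, 764 and 1692 CPM after free R848. The 2 treatments therefore overlapped for both genes, and after saline no tumor held 10 neutrophil-like cells. Ccl6 in neutrophil-like cells ran from 201 to 1366 CPM over the same tumors, with a median of 455 CPM against 486 CPM over all tumors in monocyte/macrophage-like cells, so it was not set apart from them. After thinning, 55.5% ± 14.1 of neutrophil-like cells had a Ccl3 UMI and 47.6% ± 16.0 a Ccl4 UMI (SD, n = 5 tumors).

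Osteoclast-like cells, which expressed Mmp9, Ctsk and Atp6v0d2, had high Ccl9 and 13.3 CPM or less of the other 8 chemokines. Their pooled Ccl9 level was 1477 CPM, with 1253 CPM in free R848 replicate 2 and 1658 CPM in saline replicate 3, the only tumors with at least 10 such cells. A level this high was seen for Ccl9 in no other class. A Ccl9 UMI was found in 70.6% ± 6.7 of osteoclast-like cells after thinning (SD, n = 2).

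Fibroblast-like cells had the highest levels of the monocyte chemoattractants, with 1569 CPM of Ccl2, 1388 CPM of Ccl7 and 617 CPM of Ccl8. Of the 50 cells, 39 came from the medium R848-BPD tumors, the only ones with at least 10. Ccl2 lay there at 1496 and 2032 CPM, Ccl7 at 1400 and 1462 CPM and Ccl8 at 561 and 651 CPM. Ccl12, the fourth gene of that chromosomal group, lay at 5.67 and 8.45 CPM in the same tumors (1 and 2 UMIs) and at 47 CPM in the pooled class (25 UMIs), and Ccl3 had no UMI in the class. MC38-like cells shared Ccl2 (385 CPM, and a mean of 25.2% of all Ccl2 UMIs of a tumor), whereas Ccl7 had 47.6 CPM there and the other 7 chemokines 24.7 CPM or less.

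Within the monocyte/macrophage-like class the chemokines formed 3 patterns over the 10 clusters. Ccl2, Ccl7 and Ccl12 were spread over macrophage clusters, with the highest Ccl7 (1030 CPM) and Ccl12 (637 CPM) in cluster 0, which was led by the interferon-induced Ifit3 and I830012O16Rik. Ccl4 also peaked there, at 474 CPM. In the monocyte cluster Ccl2 was held (579 CPM) while Ccl7 (132 CPM) and Ccl12 (50 CPM) were low. Ccl6 and Ccl9 followed another pattern. They were high in the monocyte cluster (730 and 664 CPM), in cluster 6 with Mmp12, Il1a and Fn1 (1251 and 1056 CPM) and in cluster 7 with Nos2, Ms4a8a and Mmp8 (1623 and 1150 CPM), and low in cluster 2 with Slc13a3 and Cx3cr1 (103 and 141 CPM). Leaving aside Ccl24, which was near the limit of detection, Ccl8 was the most restricted. It reached 973 CPM in cluster 7, where it was itself among the leading genes, and lay between 44.6 and 184 CPM in the clusters other than 7 and 4. Of these, clusters 9 (184 CPM) and 15 (136 CPM) scored highest on the monocyte list, though more macrophage than monocyte markers were found in them. The monocyte cluster, cluster 4, held 2 Ccl8 UMIs in 570 cells. After thinning, the 5% of monocyte/macrophage-like cells with the most UMIs of a gene held a mean of 91.1% of its UMIs for Ccl8, which few cells had at all, compared with 60.3% for Ccl3, 55.6% for Ccl6 and 33.2% for Ccl2.

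Cluster 7 had 497 cells, of which 455 came from medium R848-BPD tumors, 30 from free R848 and 12 from saline, so its levels and the treatment cannot be told apart for most tumors. Its Ccl8 level was 417 CPM in medium R848-BPD replicate 1 and 1701 CPM in replicate 2, and 622 CPM in the 14 cells of free R848 replicate 2. Ccl6 in the same cells was 962, 2436 and 2007 CPM. The free R848 tumor thus lay between the medium R848-BPD tumors for both genes. Cluster 9, with Saa3, Lcn2 and Cd38, was also mostly from medium R848-BPD tumors (324 of 358 cells) and had 184 CPM of Ccl8 and 289 CPM of Ccl6.

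**Figure D2:**
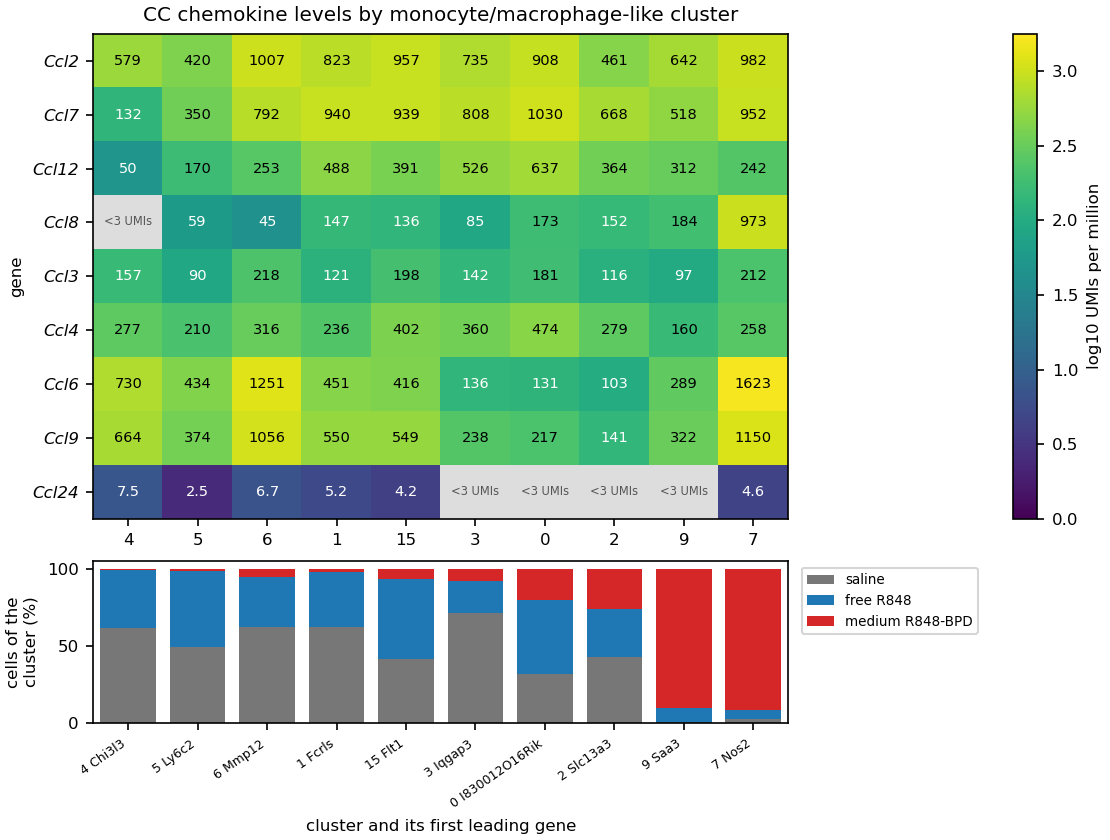
Upper panel, level of each chemokine in the 10 monocyte/macrophage-like clusters, pooled over tumors, as log10 CPM with the value printed; gray marks fewer than 3 UMIs. Lower panel, share of each cluster's cells by treatment. Ccl6, Ccl9 and Ccl8 were highest in cluster 7, which holds 455 medium R848-BPD cells of 497.

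The likeness between genes was described over 71 sums of cells (1 tumor and 1 of 14 myeloid clusters each, at least 20 cells), as Pearson correlation of log2 CPM. The sums share tumors and depth, so the values are descriptions. Among the members, the highest values were 0.94 for Ccl7 with Ccl12, 0.92 for Ccl2 with Ccl7, 0.89 for Ccl3 with Ccl4 and 0.86 for Ccl2 with Ccl12. Ccl6 with Ccl9 gave 0.62, Ccl8 with Ccl12 0.66 and Ccl6 with Ccl8 0.02. Of 6884 genes, the nearest to Ccl7 outside the list was Stab1 (0.91), followed by C3ar1 and Apoe. The nearest to Ccl12 were the complement genes C1qb (0.90) and C1qc and the sialoadhesin Siglec1, and those to Ccl2 were C5ar1 (0.88), Slc7a8 and Cd93. Ccl3 was nearest to the cytokine Tnf (0.88), then Irg1 and Rab20, and Ccl4 also to Tnf (0.82), then Nfkbiz and Slc15a3. Ccl6 was nearest to Cd14 (0.86), Lilrb4 and Picalm, and Ccl9 to Fam129b (0.89), Emp1 and Capg. Ccl8 had Ctsz (0.75), Lipa and Ctla2b, and Ccl24 had Fn1 (0.54), Vcan and F13a1.

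The treatments were compared within classes on UMIs summed per tumor, to ask which chemokines differed 24 hours after medium R848-BPD, free R848 or saline. In monocyte/macrophage-like cells none of the 9 chemokines passed edgeR's quasi-likelihood test at an adjusted p of 0.05 in any contrast, and DESeq2 also called 0. Of all 10564 genes tested, edgeR called 1.64% when comparing medium R848-BPD to free R848, 0.0189% when comparing free R848 to saline and 7.25% when comparing medium R848-BPD to saline. At an unadjusted p under 0.05 the members counted 1, 0 and 1, and all genes 1487, 1176 and 2581. All 9 fitted log2 fold changes were above 0 for medium R848-BPD against free R848 (median 0.79, against -0.01 for all genes) and all 9 below 0 for free R848 against saline (median -0.48, against 0.00). For medium R848-BPD against saline, 7 of 9 were above 0 (median 0.15). The directions for medium R848-BPD turned on single tumors. Without medium R848-BPD replicate 2, 5 of 9 were above 0 against free R848 (median 0.06) and 1 of 9 against saline (median -0.25), and without saline replicate 2, 3 of 9 were above 0 for medium R848-BPD against saline (median -0.13). For free R848 against saline, 0 to 2 of 9 were above 0 with any 1 tumor left out. These comparisons share tumors, and different clusters held the class in different groups. Clusters 1, 4, 5 and 6 had 384, 350, 262 and 326 saline cells, 221, 215, 262 and 172 free R848 cells and 13, 5, 9 and 27 medium R848-BPD cells, while clusters 7 and 9 had 12 and 2, 30 and 32, and 455 and 324.

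Ccl8 had the largest log2 fold changes of the 9 when comparing medium R848-BPD to free R848 and to saline. In monocyte/macrophage-like cells it lay at 180 and 952 CPM after medium R848-BPD, at 123, 101 and 41.6 CPM after free R848, and at 80.1, 252 and 62.7 CPM after saline. Both medium R848-BPD tumors lay above all free R848 tumors, while saline replicate 2 lay above medium R848-BPD replicate 1. The log2 fold change was 2.74 (SE 0.87, edgeR adjusted p = 0.215, n = 2 and 3) against free R848 and 2.19 (SE 0.85, adjusted p = 0.178) against saline, neither past the threshold. For free R848 against saline it was -0.56, and 0.27 (edgeR adjusted p = 0.914) without saline replicate 2. Without medium R848-BPD replicate 2 the values for medium R848-BPD fell to 1.02 and 0.46, so their size rested on that tumor. The share of cells with a Ccl8 UMI after thinning was 5.28% and 22.7% in the medium R848-BPD tumors and between 1.43% and 6.10% in the free R848 tumors (two-sided exact permutation p = 0.4, where 0.2 is the smallest that 2 against 3 tumors allow).

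The fibroblast markers, whose class has high Ccl8, were also higher in these sums, with a summed level of 27.4 to 44.6 CPM after medium R848-BPD, 14.7 to 24.2 after free R848 and 10.8 to 18.6 after saline. Of 7 markers, 6 were found in every tumor and Lum was at 0. Their part in the Ccl8 difference was not tested.

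Ccl6 lay at 414 and 1381 CPM after medium R848-BPD, at 372, 420 and 552 CPM after free R848, and at 623, 202 and 613 CPM after saline. The first medium R848-BPD tumor lay within the free R848 range and the second above all tumors. The log2 fold change against free R848 was 1.06 (SE 0.65, edgeR adjusted p = 0.545), and it was -0.13 without medium R848-BPD replicate 2. Ccl9 was measured at 514 and 873 CPM after medium R848-BPD, at 261, 471 and 496 CPM after free R848, and at 654, 164 and 868 CPM after saline. Here medium R848-BPD and free R848 did not overlap, yet the log2 fold change of 0.80 (SE 0.69) missed the threshold (edgeR adjusted p = 0.678), and the saline tumors spanned both groups. Saline replicate 2 was the lowest of all 8 tumors for both Ccl6 and Ccl9. Without it, the log2 fold change of Ccl9 for medium R848-BPD against saline went from 0.32 to -0.13 (edgeR adjusted p = 0.873), and that for free R848 against saline from -0.48 to -0.94 (adjusted p = 0.295), while those of Ccl6 went from 0.94 to 0.55 (adjusted p = 0.619) and from -0.12 to -0.50 (adjusted p = 0.713). Osteoclast markers, whose class has high Ccl9, summed to 919 to 1242 CPM in this class after medium R848-BPD, 547 to 612 after free R848 and 125 to 466 after saline, with 5 or 6 of 6 found, and their part in the Ccl9 values was not tested.

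Ccl3 lay at 147 and 246 CPM after medium R848-BPD, at 84.3, 119 and 148 CPM after free R848 and at 174, 123 and 280 CPM after saline. The lower medium R848-BPD tumor was level with the highest free R848 tumor. The log2 fold change was 0.79 (SE 0.44, edgeR adjusted p = 0.498) against free R848 and 0.06 against saline, the latter -0.21 (adjusted p = 0.798) without saline replicate 2. Shares of cells with a Ccl3 UMI after thinning did not overlap in 2 contrasts, and of the 9 members only Ccl3 showed this in either. Of 12894 genes found in at least 10 cells of the class, the thinned shares of 25.4% did not overlap when comparing medium R848-BPD to free R848, of 10.6% when comparing free R848 to saline and of 27.9% when comparing medium R848-BPD to saline, where no member did. The Ccl3 shares were 15.4% ± 5.0 after medium R848-BPD and 8.83% ± 1.79 after free R848 (exact permutation p = 0.2, n = 2 and 3), and 13.1% ± 3.5 after saline (p = 0.1 against free R848, n = 3 and 3, the smallest this size allows). Neutrophil markers summed to 80.3 to 247 CPM in this class after medium R848-BPD, 58.7 to 104 after free R848 and 38.5 to 94.8 after saline, with 6 or 7 of 7 markers found. Their part in the Ccl3 values was not tested.

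Ccl4 was measured at 251 and 375 CPM after medium R848-BPD, at 165, 249 and 358 CPM after free R848 and at 348, 378 and 447 CPM after saline. Only the highest free R848 tumor reached the saline range, and the log2 fold change for free R848 against saline was -0.60 (SE 0.31, edgeR adjusted p = 0.5). The monocyte chemoattractants Ccl2, Ccl7 and Ccl12 overlapped between all groups. Ccl2 ran from 486 to 1200 CPM over the 8 tumors, Ccl7 from 525 to 1030 CPM and Ccl12 from 263 to 557 CPM. Their fitted log2 fold changes lay between -0.27 and 0.43, and none had an adjusted p under 0.606. Without saline replicate 2, those of Ccl2 and Ccl7 for medium R848-BPD against saline went from 0.17 and 0.13 to -0.13 and -0.04.

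Ccl24 counts in monocyte/macrophage-like cells were 38, 1 and 25 UMIs after saline, 5, 2 and 2 after free R848 and 4 and 10 after medium R848-BPD. The other 2 saline tumors stood near 9 CPM (9.17 and 9.33), while saline replicate 2, at 0.154 CPM, lay below every other tumor. For free R848 against saline the log2 fold change was -2.81 (SE 1.32, edgeR adjusted p = 0.484), and without saline replicate 2 it was -3.50 (adjusted p = 0.0248). For medium R848-BPD against saline it was -1.60 (edgeR adjusted p = 0.515), and -2.34 (adjusted p = 0.0277) when that tumor was left out. In saline replicate 3, 18 of the 25 UMIs came from 11 cells.

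**Figure D3:**
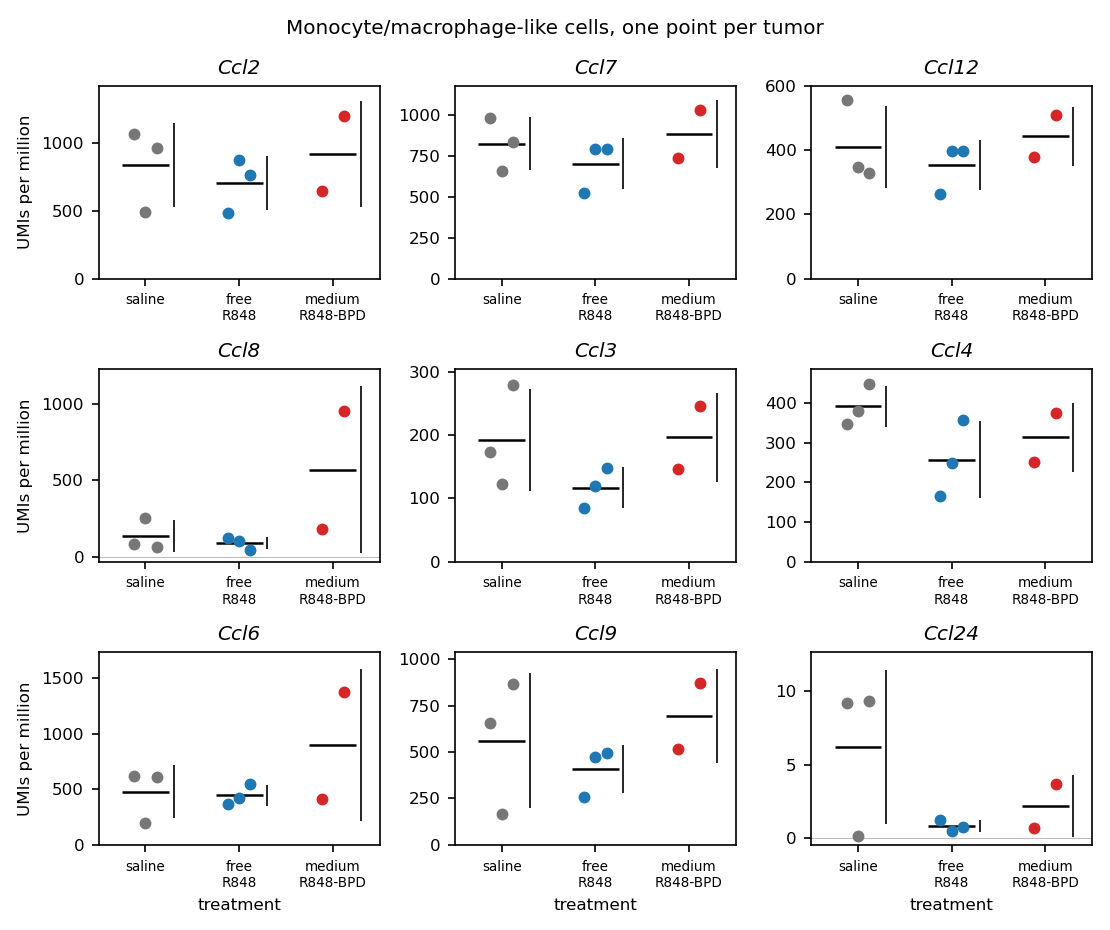
Level of each chemokine in monocyte/macrophage-like cells, in CPM, 1 point per tumor, with a line at the group mean. The medium R848-BPD tumors lay above the free R848 tumors for Ccl8 and Ccl9, with 1 of them far above the rest for Ccl8 and Ccl6. None of these genes passed the test, and the share of all genes with such an order of CPM was not counted.

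Those 11 cells belonged to a small population found in every tumor. Monocyte/macrophage-like cells with UMIs of at least 2 of Lyve1, Cd5l, Fcna, Cbr2 and Ednrb, genes of resident tissue macrophages, numbered 148 of 5311 (2.79%), of which 101 lay in cluster 7. This gate was chosen after Ccl8 values had been seen. They made up 3.99% and 13.1% of the class in the medium R848-BPD tumors, 0.591%, 1.74% and 0.407% after free R848 and 2.29%, 0.745% and 1.64% after saline.

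In the 5 tumors with at least 10 gated cells, Ccl8 was higher in the gated cells than in the other cells of the class in each tumor. It lay at 1693 against 64.2 CPM and 3410 against 465 CPM in the medium R848-BPD tumors, at 602 against 81.7 CPM in free R848 replicate 2, and at 616 against 57.8 CPM and 277 against 56.2 CPM in saline replicates 1 and 3. The gated cells thus carried 67% and 59.2% of the Ccl8 UMIs of the class in the medium R848-BPD tumors, and between 0 and 30.7% in the other 6. Without them the log2 fold change of Ccl8 for medium R848-BPD against free R848 was 1.74, and Ccl8 was not called. The other cells of the class had 64.2 and 465 CPM in the medium R848-BPD tumors and 124, 81.7 and 41.8 CPM in the free R848 tumors. These values overlapped, so the size of that change rested on medium R848-BPD replicate 2.

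Ccl6 was also higher in the gated cells of these 5 tumors, at 2758 against 234 CPM and 4121 against 839 CPM after medium R848-BPD, 2207 against 350 CPM after free R848, and 3140 against 518 CPM and 3986 against 510 CPM after saline. The gated cells gave 47.6% and 49.3% of the class's Ccl6 UMIs in the medium R848-BPD tumors. Ccl9 differed less, from 1105 against 635 CPM in saline replicate 1 to 1746 against 420 CPM in medium R848-BPD replicate 1. Ccl12 and Ccl4 did not share this order in every tumor, since gated cells of medium R848-BPD replicate 1 had less Ccl12 (290 against 385 CPM) and those of saline replicate 3 less Ccl4 (176 against 456 CPM). Ccl24 reached 226 CPM in the gated cells of saline replicate 3 and 48.3 CPM in those of saline replicate 1, against 2.69 and 7.54 CPM in the other cells.

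**Figure D4:**
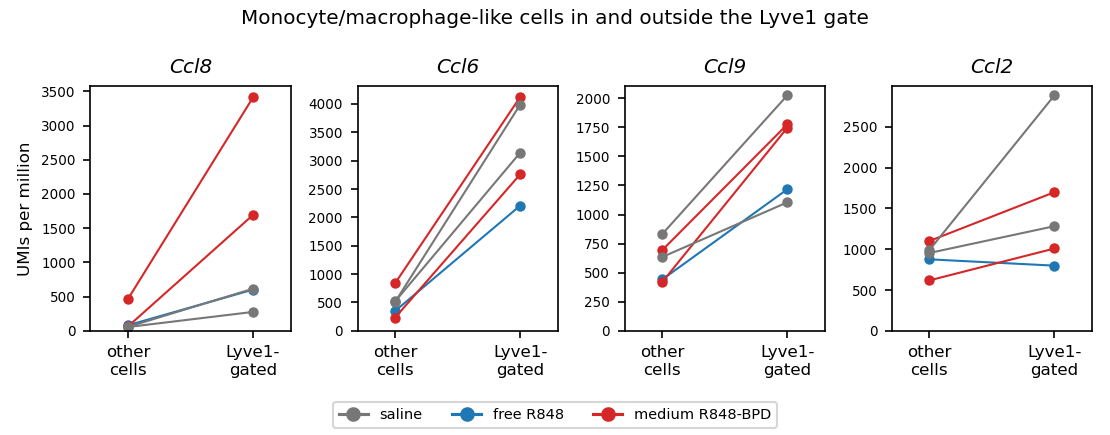
Levels of Ccl8, Ccl6, Ccl9 and Ccl2 (CPM, linear axes) in gated cells and in other monocyte/macrophage-like cells of the same tumor, joined by a line. Gated cells had UMIs of at least 2 of Lyve1, Cd5l, Fcna, Cbr2 and Ednrb. Ccl8 was higher in gated cells in each of the 5 tumors with at least 10 of them. Ccl2 was lower in those of free R848 replicate 2 (799 against 876 CPM) and higher in those of each other tumor shown.

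In DC-like cells 6 of the 9 chemokines passed the filter on low counts (not Ccl8, Ccl12 and Ccl24), and 2 of them passed the test in at least 1 contrast, each in calls that some alternatives ended. Ccl3 was higher after medium R848-BPD and Ccl9 lower after either form of R848, though not after free R848 when cells were assigned by their own markers. Members called by edgeR numbered 1 when comparing medium R848-BPD to free R848, 1 when comparing free R848 to saline and 2 when comparing medium R848-BPD to saline, where 1.38%, 2.1% and 15.3% of all 5949 genes were called. At an unadjusted p under 0.05 the members counted 1, 1 and 3, and all genes 694, 1042 and 1698.

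Ccl3 in DC-like cells lay at 53.8 and 129 CPM after medium R848-BPD, at 11, 26.1 and 5.49 CPM after free R848 and at 20.1, 20.6 and 48.1 CPM after saline. Both medium R848-BPD tumors lay above all others. The log2 fold change was 2.55 (SE 0.57, edgeR adjusted p = 0.0400) against free R848 and 1.60 (SE 0.51, adjusted p = 0.0467) against saline. The first call was lost when any of 4 single tumors was left out. The edgeR adjusted p was then 0.278 (medium R848-BPD replicate 2), 0.158 (free R848 replicate 3), 0.057 (free R848 replicate 2) or 0.0531 (saline replicate 2). It was also lost when only those 2 treatments were fitted (adjusted p = 0.0543). The second was not made by DESeq2 (adjusted p = 0.0899) or with the replicate number as a block (edgeR adjusted p = 0.0551), and was lost on leaving out medium R848-BPD replicate 2 (log2 fold change 0.89, edgeR adjusted p = 0.397), saline replicate 1 (0.288) or saline replicate 2 (0.0876).

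Ccl9 in DC-like cells lay at 44.4 and 86.3 CPM after medium R848-BPD, at 21.9, 59.9 and 102 CPM after free R848 and at 224, 364 and 202 CPM after saline. All saline tumors lay above all treated tumors. The log2 fold change was -1.99 (SE 0.41, edgeR adjusted p = 0.0338) for free R848 and -2.05 (SE 0.46, adjusted p = 0.0102) for medium R848-BPD, each against saline. After thinning, 13.9% ± 0.3 of saline DC-like cells had a Ccl9 UMI, compared with 3.84% ± 2.62 after free R848 and 3.78% ± 0.71 after medium R848-BPD (exact permutation p = 0.1 and 0.2, the smallest these sizes allow). Median depth rose in the opposite order, from 3658 UMIs after saline to 4415 and 4816.5. The first call was lost without free R848 replicate 2 (edgeR adjusted p = 0.0905), saline replicate 1 (0.158) or saline replicate 3 (0.0659) and with clusters built with the chemokine genes (0.0631), and the second without medium R848-BPD replicate 1 (0.134). Ccl6, the neighbor of Ccl9, had 20.2 and 111 CPM after medium R848-BPD and 228, 206 and 132 CPM after saline without overlap, but did not pass the test (log2 fold change -1.76, edgeR adjusted p = 0.121).

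The DC-like class was made of 2 clusters whose proportions moved with treatment. Cluster 10, with the maturation genes Fscn1, Cacnb3 and Ccl22, had 67 cells from saline, 120 from free R848 and 169 from medium R848-BPD tumors. Cluster 11, with Flt3, Kmo and H2-Ob, had 248, 79 and 23. Pooled over tumors, Ccl9 was 54.2 CPM in cluster 10 and 221 CPM in cluster 11, and Ccl6 was 46.3 and 234 CPM. Within cluster 10, Ccl3 lay at 60.5 and 98.2 CPM after medium R848-BPD, 0, 18.6 and 10.2 CPM after free R848 and 32.2 and 24.6 CPM in saline replicates 1 and 3, again with both medium R848-BPD tumors highest. There its log2 fold change was 2.94 (edgeR adjusted p = 0.0170) against free R848 and 1.3 (adjusted p = 0.408) against saline.

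Within cluster 10 Ccl9 lost both calls. There its log2 fold change against saline was -1.49 (edgeR adjusted p = 0.541) for free R848 and -0.74 (adjusted p = 0.664) for medium R848-BPD. In cluster 11 it was -1.57 for free R848 (edgeR adjusted p = 0.173), with saline at 246, 513 and 265 CPM and free R848 at 19.6, 100.5 and 155 CPM. The 1 medium R848-BPD tumor with at least 10 cells of cluster 11 lay at 97.3 CPM, and no test is read from it. All 3 saline tumors thus lay above the treated tumors in cluster 11.

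Markers of other cells were also found in the DC-like sums. Neutrophil markers, whose class has high Ccl3, summed to 280 to 623 CPM after medium R848-BPD (7 of 7 found), 22 to 69.4 CPM after free R848 and 21.2 to 48.1 CPM after saline. Macrophage markers summed to 1119 to 2314, 823 to 1527 and 517 to 4018 CPM in the same order of groups, with 8 or 9 of 9 found. Osteoclast markers, whose class has high Ccl9, summed to 404 to 410, 80.3 to 175 and 113 to 158 CPM, with 3 to 5 of 6 found and Calcr at 0. The part of these cells in the Ccl3 and Ccl9 differences was not tested. When each cell was instead assigned by its own markers, or when 29 cells were drawn from each tumor, neither gene passed the test in any contrast. Under the first of these, the log2 fold change of Ccl9 against saline was 0.022 for free R848 (edgeR adjusted p = 0.996) and -1.02 for medium R848-BPD (adjusted p = 0.659), so the difference after free R848 was no longer seen. That of Ccl3 for medium R848-BPD was 2.62 against free R848 (edgeR adjusted p = 0.161) and 0.53 against saline (adjusted p = 0.595). With equal cells, Ccl9 was at -1.95 and -1.23 against saline, and Ccl3 at 3.45 against free R848 and 0.62 against saline.

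**Figure D5:**
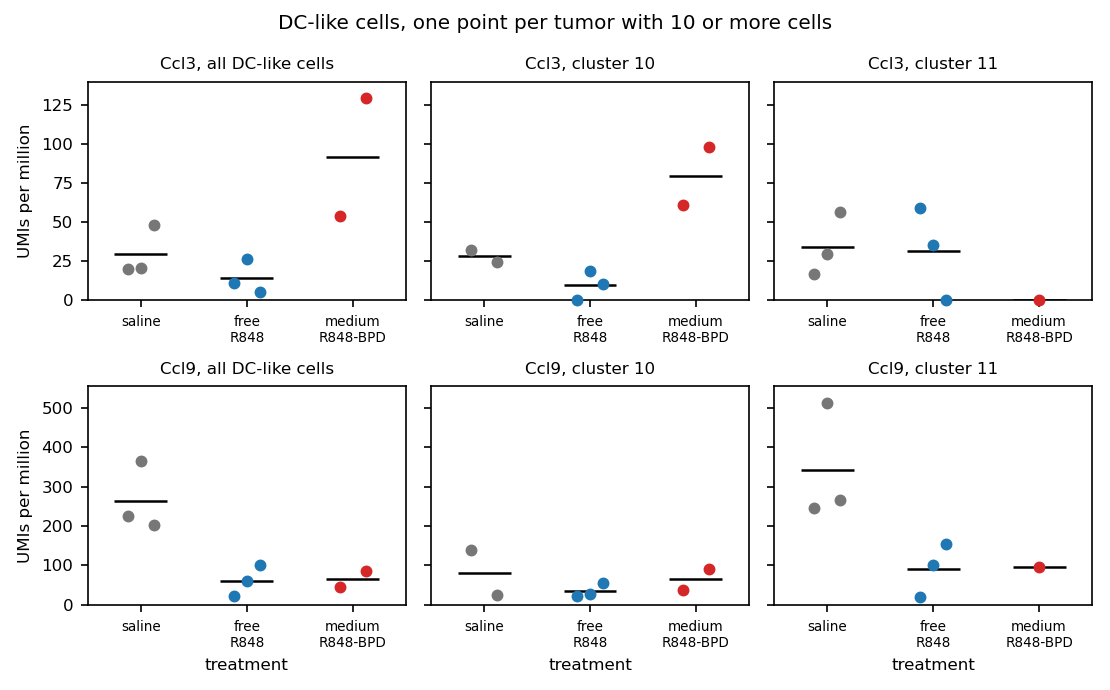
Ccl3 (upper) and Ccl9 (lower) in DC-like cells and in their clusters 10 and 11, in CPM, 1 point per tumor with at least 10 cells, with a line at the group mean. Ccl3 was highest in both medium R848-BPD tumors in the whole class and in cluster 10, and Ccl9 was highest in saline tumors in the whole class and in cluster 11.

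NK-like cells had low levels throughout. Of the 6 chemokines tested (not Ccl6, Ccl8 and Ccl24), edgeR called 0, 0 and 1 in the contrasts of medium R848-BPD to free R848, free R848 to saline and medium R848-BPD to saline, as did DESeq2, where 0.397%, 0% and 1.07% of all 8569 genes were called by edgeR. At an unadjusted p under 0.05 the members counted 1, 2 and 3, and all genes 756, 390 and 863. The call was Ccl2, at 6.34 and 0 CPM after medium R848-BPD, 8.43, 23.2 and 11.9 CPM after free R848 and 39.7, 50.9 and 47.9 CPM after saline. The 3 groups did not overlap, and the log2 fold change for medium R848-BPD against saline was -3.04 (SE 0.47, edgeR adjusted p = 5.34e-04). It rested on 12 UMIs in all after medium R848-BPD. The saline level was 3.73%, 10.4% and 4.97% of the Ccl2 level that monocyte/macrophage-like cells had in those tumors. The thinned share of NK-like cells with a Ccl2 UMI was 0.689% ± 0.265 after saline, 1.56% ± 1.07 after free R848 and 0.474% ± 0.670 after medium R848-BPD (SD, n = 3, 3 and 2). Saline and medium R848-BPD overlapped, and the free R848 mean lay above saline, opposite to the CPM, so no order is read from the shares. Over the 8 tumors the share averaged 0.961%, against 1.67% of T-like cells, with median depths of 4965 to 6994 and 3985 to 5446 UMIs by treatment, and the source of these UMIs was not tested. Of the NK-like clusters, cluster 12 had 45.9 CPM of Ccl2 and clusters 8 and 13 had 5.69 and 15.2 CPM. The call was lost when cells were assigned by their own markers (log2 fold change -0.28, edgeR adjusted p = 0.978) and when equal numbers of cells were drawn (-5.01, adjusted p = 0.568). Macrophage markers in NK-like sums ran from 130 to 303 CPM after medium R848-BPD, 150 to 529 after free R848 and 69.5 to 1471 after saline, with 8 or 9 of 9 found, and their part in the Ccl2 difference was not tested.

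In T-like cells 5 chemokines were tested (Ccl2, Ccl3, Ccl4, Ccl7 and Ccl9) and edgeR and DESeq2 each called 0 in the 3 contrasts, with 0 members and 361, 275 and 330 of all genes at an unadjusted p under 0.05. Of 5835 genes, edgeR called 0.0343%, 0% and 0.0343% in the same order of contrasts. Ccl3 in T-like cells ran from 0 to 89.9 CPM over the tumors and Ccl4 from 3.74 to 123 CPM, so both varied widely. In MC38-like cells 8 chemokines were tested (not Ccl24), and edgeR and DESeq2 again called 0 in each contrast, with 1, 0 and 3 members at an unadjusted p under 0.05, beside 1572, 856 and 1555 of all genes. There 0.743%, 0% and 1.24% of 10898 genes were called by edgeR. Ccl2 in MC38-like cells lay at 485 and 323 CPM after medium R848-BPD, 333, 299 and 355 CPM after free R848 and 452, 513 and 256 CPM after saline, so all groups overlapped.

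Whether a treatment difference was itself larger in monocyte/macrophage-like cells than in another class was tested in joint fits with the tumor as a block. Of 108 such tests over the 9 chemokines, 4 other classes and 3 contrasts, edgeR called 4. In 75 of the tests the chemokine had also passed the filter on low counts in the other class, and 2 of these were called. In 12 tests it was Ccl24, which had 0 UMIs in the other class and could not have been called. Against DC-like cells it called 0, 0 and 1 members in the contrasts of medium R848-BPD to free R848, free R848 to saline and medium R848-BPD to saline, where 0.324%, 0.362% and 3.86% of all genes were called. Against NK-like cells it called 1, 0 and 1, where 0.358%, 0% and 1.2% of genes were called. Against T-like cells it called 0 in each (0.22%, 0.0183% and 0.311% of genes), and against MC38-like cells 0, 0 and 1 (0.614%, 0% and 2.75%). At an unadjusted p under 0.05 the members counted 3, 0 and 2 against DC-like cells (748, 960 and 1658 of 10509 genes) and 1, 1 and 2 against NK-like cells (907, 653 and 1149 of 10892). They counted 1, 0 and 0 against T-like cells (681, 796 and 891 of 10916) and 3, 0 and 3 against MC38-like cells (1351, 967 and 1979 of 11897).

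Both calls on genes that passed the filter in each class concerned Ccl3. The log2 change of Ccl3 from saline to medium R848-BPD in monocyte/macrophage-like cells minus that in DC-like cells was -1.64 (SE 0.37, edgeR adjusted p = 0.00747). Neutrophil markers, whose class has high Ccl3, were higher in DC-like sums after medium R848-BPD, as given above. DC-like cells also lay mostly in cluster 11 after saline and in cluster 10 after medium R848-BPD. The part of either in this difference was not tested. The Ccl3 change in monocyte/macrophage-like cells was higher than in MC38-like cells by 2.10 (edgeR adjusted p = 0.0283). In MC38-like cells Ccl3 lay at 1.62 and 3.27 CPM after medium R848-BPD and 5.64, 9.81 and 12.4 CPM after saline. MC38-like cells had served above as the background for Ccl3. Macrophage markers in their sums ran from 171 to 226 CPM after medium R848-BPD and from 323 to 1509 CPM after saline, with 9 of 9 found in each tumor. Their part in this difference was not tested. The other 2 calls, of Ccl6 against NK-like cells, are not read. Ccl6 had not passed the filter in NK-like cells, where the medium R848-BPD tumors held 1 and 0 of its UMIs, and it entered the joint fit through the monocyte/macrophage-like sums.

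Receptors of these chemokines differed in level between the classes. In monocyte/macrophage-like cells Ccr2 had 359 CPM and Ccr1 284 CPM in the pooled data, and Ccr3 1.2 CPM. Ccr1 was highest in neutrophil-like (1269 CPM) and osteoclast-like cells (689 CPM), Ccr3 in osteoclast-like cells (121 CPM), and Ccr2 in NK-like cells (849 CPM). Ccr8, a receptor for mouse Ccl8, was found in T-like cells (11.8 CPM) with at most 4 UMIs in any other class. The scavenging receptors Ackr1 (under its older symbol Darc) and Ackr2 had 6 and 5 UMIs in fibroblast-like cells and at most 2 in any other class. In monocyte/macrophage-like cells Ccr1, Ccr2 and Ccr3 were tested and none of them was called in any contrast. Ccr2 there averaged 149 ± 11 CPM after medium R848-BPD, 463 ± 44 after free R848 and 425 ± 205 after saline, and missed the threshold (edgeR adjusted p = 0.0849 and 0.0512). Cluster 5, with Ly6c2 and Ccr2 among its leading genes, and the monocyte cluster 4 had 9 and 5 medium R848-BPD cells against 262 and 350 saline cells, and their part in the Ccr2 values was not tested. In DC-like cells Ccr2 and Ccr1 fell from saline to medium R848-BPD. The log2 fold change was -2.03 for Ccr2 (edgeR adjusted p = 0.00289) and -1.09 for Ccr1 (adjusted p = 0.0243), where 15.3% of all genes were called. Cluster 11 held 248 of the saline but 23 of the medium R848-BPD cells of this class, and the part of this shift was not tested. Ccr2 in MC38-like cells also fell in that contrast, by 2.09 on the log2 scale, from 25 to 6.39 CPM in the means (edgeR adjusted p = 0.0208). Macrophage markers were lower in the same sums (171 to 226 CPM after medium R848-BPD against 323 to 1509 after saline), as were monocyte markers (87.1 to 157 against 164 to 269 CPM, 8 of 8 found), and their part in the Ccr2 difference was not tested.

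Among genes of receptor signalling, 0 of 19 rose and 2 fell in monocyte/macrophage-like cells when comparing medium R848-BPD to free R848, where 1.64% of all genes were called. These were the regulators of G protein signalling Rgs2 (log2 fold change -1.24, edgeR adjusted p = 0.0265) and Rgs10 (-0.72, adjusted p = 0.0429). When comparing medium R848-BPD to saline, 2 rose and 4 fell, where 7.25% of all genes were called (380 higher and 386 lower), among them Rgs2 (-0.96), Rgs10 (-0.96) and the guanosine triphosphatase Rac2 (0.94). In the same contrast, and beside the same 7.25%, 0 of 12 NF-kB genes rose and 3 fell. These were Rel (-1.22) and Nfkb1 (-0.88), subunits of the factor, and Nfkbiz (-0.88), which was named after its value had been seen. Saline and medium R848-BPD cells of this class lay largely in different clusters, as given above, and the part of this in the list counts was not tested. The STAT, IRF and SOCS genes (13 tested) and the chemokine processing and glycan genes (7 tested) had no call in any contrast of this class, and no gene of any list was called in it when comparing free R848 to saline. In DC-like cells 5 of 12 NF-kB genes rose from saline to medium R848-BPD and 0 fell, where 15.3% of all genes were called in either direction. Named after their values had been seen, these were Tnip1 (1.22), Nfkb2 (1.09), Nfkbib (0.99), Relb (0.90) and Nfkbia (0.69). The class lay mostly in cluster 11 after saline and in cluster 10 after medium R848-BPD, and neutrophil markers in its sums ran from 21.2 to 48.1 and from 280 to 623 CPM. The part of either in the DC-like list counts was not tested. In that contrast receptor signalling genes went both ways (3 rose and 3 fell of 18), 2 STAT, IRF and SOCS genes rose and 1 fell of 12, and 1 of 7 processing and glycan genes fell. When comparing free R848 to saline, 1 of 12 NF-kB genes fell in DC-like cells (Nfkbiz, log2 fold change -1.10, edgeR adjusted p = 0.0163, again named after its value had been seen) beside 2.1% of all genes called, and no gene of these other lists was called.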

How the data were processed

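Single-cell RNA was profiled on Seq-Well arrays from 8 MC38 tumors, 1 library each. Each table holds unscaled UMI counts, with genes against cell barcodes. Per the labels and the study's methods, the authors made these counts by demultiplexing reads with bcl2fastq (named, without a version, in the submitters' processing notes), aligning them to mm10 and counting UMIs. The aligner and the annotation are not given in the sources used here. The deposited counts were not normalized.

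Cells with more than 400 and fewer than 10000 genes, under 50000 UMIs and at most 15% mitochondrial UMIs were kept, the limits the study used. Scrublet (expected rate 0.05, in scanpy 1.11.5) marked doublets, which were kept in the main fits and removed in an alternative. Seurat 5.3.0 clustered all cells (30 principal components, resolution 0.8) and then nonmalignant cells (11 components, resolution 1.3, 840 variable genes after the chemokine and other listed genes were left out). Clusters were named from marker lists, needing at least 3 detected markers. A cell-by-cell marker gate gave the same class for 85.9% of cells. Free RNA and doublets can place transcripts of 1 class in another.

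UMIs were summed per tumor and class with at least 10 cells. Contrasts were fitted on all genes with edgeR 4.0.16 in R 4.3.3 (TMM scaling, filterByExpr, robust quasi-likelihood test, Benjamini-Hochberg adjustment over all genes tested, threshold 0.05). Differences between classes came from joint fits with the tumor as a block. A log2 fold change is of the first group named over the second. Shares of cells were taken after thinning to 1000 UMIs, leaving out shallower cells, and compared by two-sided exact permutation tests over tumors (scipy 1.17.1). The edgeR steps were tested on simulated data. Alternatives were DESeq2 1.42.0, RLE scaling, no filter on low counts, other cell sets and classes, each tumor left out and a replicate block. Some were chosen after seeing the data, namely leaving out cells of 10% or more mitochondrial UMIs, shared barcodes or Lyve1-gated cells, and the separate DC-like clusters.

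Replicates are separate tumors as the labels number them. Replicate numbers were checked as pairs by the correlation of deviations from group means, and they are only names, since no mouse is shared. The members and gene lists were chosen with earlier results of these data known. Named were all 9 members, the receptors (1 item of the receptor list is not reported here), genes of the other lists called in monocyte/macrophage-like cells (at most 6 per contrast with the largest change), and for each member the 3 genes of highest correlation (prior count 2, mean log2 CPM of at least 4). Gene positions are from GENCODE on GRCm38, and promoter sequences from RefSeq.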

Additional observations from a re-analysis of the deposited data

Results flagged for a closer look

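In 2 of 75 tests on chemokines that passed the filter on low counts in both classes, the treatment change differed between monocyte/macrophage-like cells and another class, by the class-by-treatment term of a joint edgeR fit. Both calls came when comparing medium R848-BPD to saline. In that contrast 3.86% of all genes were called against DC-like cells and 2.75% against MC38-like cells, so the members are not read as standing out. For Ccl3 the difference in log2 fold change to DC-like cells was -1.64 (adjusted p = 0.00747) when comparing medium R848-BPD to saline. It was -1.40 (adjusted p = 0.0833) without medium R848-BPD replicate 2 and -1.38 (adjusted p = 0.145) without saline replicate 1. For Ccl3 and MC38-like cells it was 2.10 (adjusted p = 0.0283) in the same contrast, and the call was lost without free R848 replicate 3 (adjusted p = 0.0509), medium R848-BPD replicate 1 (0.0588) or medium R848-BPD replicate 2 (0.279). Macrophage markers in MC38-like sums ran from 171 to 226 CPM after medium R848-BPD and from 323 to 1509 CPM after saline. Neutrophil markers in DC-like sums were higher after medium R848-BPD than after saline, as given above. The part of these cells in either difference was not tested.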

How the results depend on the processing

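The count of members called in monocyte/macrophage-like cells was 0 in all 3 contrasts under every alternative except that it was 1 for free R848 against saline with no filter on low counts. With single tumors left out it ran from 0 to 1 for free R848 against saline and from 0 to 1 for medium R848-BPD against saline, and the call in both was Ccl24, without saline replicate 2.

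In DC-like cells the 1 call for medium R848-BPD against free R848 became 0 when only those 2 treatments were fitted, under the cell-by-cell gate, with the same number of cells per tumor and in cluster 11 alone (0 to 1 with single tumors left out). The 1 call for free R848 against saline became 0 under the gate, with clusters built with the chemokine genes, with equal cells and in cluster 10 or cluster 11 alone (0 to 1). The 2 calls for medium R848-BPD against saline became 1 with DESeq2 and 1 with the replicate block (Ccl3 lost in both), and 0 under the gate, with equal cells and in cluster 10 or cluster 11 alone (1 to 2). The cause of these losses was not tested. In cluster 11 only 1 medium R848-BPD tumor had at least 10 cells, so nothing is read from its counts in contrasts with that group.

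In NK-like cells no filter on low counts gave 2 calls for free R848 against saline and 3 for medium R848-BPD against saline. The latter were 3 with 2 treatments fitted, 2 with the replicate block, 0 under the gate and 0 with equal cells (1 to 2 with single tumors left out). In MC38-like cells no filter gave 3 calls for medium R848-BPD against saline (0 to 1 with single tumors left out). Counts of all genes called under these settings are not given for MC38-like cells, so nothing is read from these member counts. Members whose change differed from that in monocyte/macrophage-like cells numbered, with single tumors left out, 0 to 2 (medium R848-BPD against free R848), and 0 to 3 (medium R848-BPD against saline) for DC-like cells. For NK-like cells these were 0 to 1, 0 to 1 (free R848 against saline) and 0 to 2, for T-like cells 0 to 1 (medium R848-BPD against saline) and for MC38-like cells 0 to 2 and 0 to 1. The counts for NK-like cells include Ccl6, which had not passed the filter there.

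Several log2 fold changes changed sign, all but the one of Ccl9 in DC-like cells for free R848 against saline from contrasts in which the gene had not been called. In monocyte/macrophage-like cells, with single tumors left out, Ccl6 ran from -0.13 to 1.70 and Ccl24 from -0.18 to 2.22 for medium R848-BPD against free R848. For free R848 against saline, Ccl6 ran from -0.50 to 0.12 (0.043 without Lyve1-gated cells) and Ccl8 from -0.87 to 0.27. For medium R848-BPD against saline, Ccl3 ran from -0.41 to 0.47 (-0.025 with equal cells, -0.023 without Lyve1-gated cells), Ccl6 from -0.25 to 1.59 and Ccl9 from -0.17 to 0.81. Ccl9 in DC-like cells for medium R848-BPD against free R848 ran from -0.53 to 0.52, and was 0.027 with DESeq2, 0.16 with the replicate block, 0.72 with equal cells and 0.75 in cluster 10. For free R848 against saline Ccl9 was 0.022 under the gate. Ccl2 in NK-like cells for medium R848-BPD against free R848 was 1.21 under the gate.

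Members whose thinned shares of monocyte/macrophage-like cells did not overlap numbered 1 for medium R848-BPD against free R848 (4 without thinning, 1 to 9 with single tumors left out), 1 for free R848 against saline (1 to 4) and 0 for medium R848-BPD against saline (2 without thinning, 1 to 6). Over all genes found in at least 10 cells, 25.4%, 10.6% and 27.9% did not overlap, and fewer tumors overlap less by construction. Counts of all genes called also moved. Over settings other than leaving out tumors, they ran in monocyte/macrophage-like cells from 70 to 752, 1 to 367 and 166 to 1584 in the 3 contrasts, in DC-like cells from 8 to 256, 3 to 407 and 27 to 1111, and in NK-like cells from 15 to 94, 0 to 15 and 32 to 193. Same-numbered tumors did not deviate together (r from -0.23 to 0.21), so the replicate block pairs tumors that share a number only. Cluster 4, the only cluster of its class with more monocyte than macrophage markers, gave no contrast with medium R848-BPD, which had 5 cells in it. Keeping a poor-quality cluster was not run, since no cluster met that rule. With 2 medium R848-BPD tumors, their spread rests on a single difference.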
